A study of Rattus norvegicus with 9 samples.

Results

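The genes described here encode the machinery that makes peptides and loads them onto MHC class I molecules: B2m, Tap1, Tap2, Tapbp, Psmb8, Psmb9, Psmb10, Psme1, Psme2 and Calr. They were taken as the probe sets to which the array annotation gives 1 of these symbols and no other. All 10 genes were measured, by 13 of 31042 probe sets, and they are 10 of 14217 genes with a probe set of their own. B2m, Tap1 and Psme1 had a second probe set each. Each gene is described by the probe set with the highest mean signal over the 9 arrays, and the second is given beside it.

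mRNA expression was measured on Affymetrix arrays in 3 bladder tumors, 3 adjacent normal tissues and 3 normal bladder tissues of female SD rats. The tumors were orthotopic bladder transitional cell carcinomas. They grew after weekly intravesical instillation of 20 mg/ml MNU (N-methyl-N-nitrosourea, an alkylating carcinogen) for 10 weeks, begun at an age of 10 weeks. Tumors and adjacent tissues were taken as pairs from 3 rats, so they are not independent, and the normal tissues came from 3 other rats. The MNU text and the age stand in the labels of all 9 samples, whereas the series design calls the last 3 normal rats. Each array is a piece of whole tissue, in which fewer cells of a type and less RNA per cell cannot be told apart. How far the adjacent tissue lay from the tumor is not given in the sources used here.

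Class I molecules present peptides from inside the cell to T cells. The proteasome cuts proteins into peptides, the transporter TAP carries these into the endoplasmic reticulum, and a loading complex fits them onto a heavy chain paired with beta-2-microglobulin. Under interferon, cells replace the catalytic subunits of the proteasome with the inducible subunits encoded by Psmb8, Psmb9 and Psmb10, and this form is called the immunoproteasome.

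Of the 10 genes, 5 lie on chromosome 20 in RefSeq's rat assembly GRCr8 (Tap1, Tap2, Tapbp, Psmb8 and Psmb9), in the MHC region. Tap2, Psmb8, Tap1 and Psmb9 are neighbors there, in that order. Tap1 and Psmb9 run in opposite directions from starts 457 bases apart. Psme1 and Psme2 lie on chromosome 15, Psmb10 and Calr on chromosome 19 and B2m on chromosome 3. RefSeq's promoter windows, 250 bases before to 50 bases after each annotated start, were matched for all 10 genes by symbol. They were searched on both strands for GAAA and GAAA with any 2 bases between them, a core of the interferon-stimulated response element (ISRE) that interferon regulatory factors bind. The pattern was found in 7 of the 10 windows, against 3.77% of all 27457 windows. The motifs were chosen after the sequences and earlier results were seen, so this is a description, and a match is not a binding site. The stretches around the matches are shown because they are what the promoters of these 7 genes share. Each is written 5′ to 3′ on the gene's strand, with the match in capitals:
B2m, chr3:129549145-129549204, plus strand: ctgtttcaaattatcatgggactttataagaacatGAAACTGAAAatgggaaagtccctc
Tap1, chr20:4668640-4668699, minus strand: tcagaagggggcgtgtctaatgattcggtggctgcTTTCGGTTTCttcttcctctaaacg
Tap2, chr20:4652313-4652372, minus strand: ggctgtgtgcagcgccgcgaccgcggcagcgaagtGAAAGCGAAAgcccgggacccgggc
Tapbp, chr20:4967879-4967938, minus strand: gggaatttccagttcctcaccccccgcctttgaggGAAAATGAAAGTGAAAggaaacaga
Psmb8, chr20:4657026-4657055, minus strand: cctcctcttggtgctgtggcTTTCGCTTTC
Psmb10, chr19:50743341-50743400, minus strand: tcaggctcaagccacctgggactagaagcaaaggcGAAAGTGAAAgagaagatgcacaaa
Psme2, chr15:33052780-33052839, minus strand: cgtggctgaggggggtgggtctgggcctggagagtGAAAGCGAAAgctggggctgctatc
Tap1 and Psmb8 carry the pattern on the opposite strand. In Tapbp a pair of matches overlap, and Psmb10 has another match 17 to 8 bases before its start. In Psmb8 the match lies across the annotated start. The windows of Psmb9, Psme1 and Calr did not hold these letters, although the Tap1 match lies 336 bases from the start of Psmb9, outside the window of Psmb9. The kappaB consensus was found in 3 of the 10 windows (B2m, Tap1 and Tapbp), against 4.16% of all windows. The ISRE-type pattern was found in 15 of 20 windows of a list of interferon targets. It was found in 0 of the 3 windows of the constitutive catalytic subunits, Psmb5, Psmb6 and Psmb7.

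**Figure D1:**
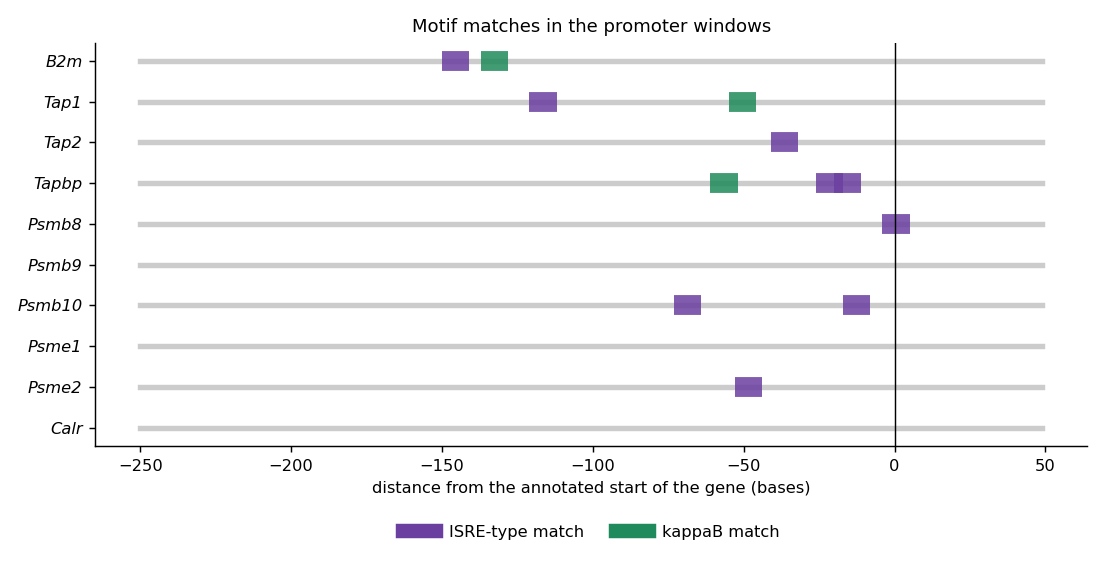
Positions of motif matches in the promoter windows of the 10 genes, in bases from the annotated start (horizontal axis, 0 at the start); gray lines are the windows and colored blocks the matches. ISRE-type matches lie within 150 bases before the start in B2m, Tap1, Tap2, Tapbp, Psmb10 and Psme2 and across the start in Psmb8, and none is drawn for Psmb9, Psme1 and Calr.

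The values are log2 signals that the authors normalized with the MAS5 algorithm, and the arrays have medians between 6.87 and 7.23. Tumor 1 stood closer to normal tissue than the other tumors did: its Pearson's r with normal arrays over all probe sets was 0.903 to 0.910, against 0.843 to 0.866 for tumors 2 and 3. Its summed level of 11 smooth muscle genes was 69.6% of the normal mean, against 2.61% and 2.97% in tumors 2 and 3. Counts in tumors are therefore also given without tumor 1, where 20.4% of all genes were called higher and 17.5% lower.

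Tap1, Psmb8 and Psmb10 were higher in tumors than in normal bladder tissues at an adjusted p under 0.05 (limma, Benjamini-Hochberg over all probe sets). Among the 10 genes, 3 were called higher and 0 lower, where 13.6% of all genes were called higher and 9.95% lower. In adjacent normal tissues 5 were called higher than in normal bladder tissues (Tap1, Tap2, Psmb8, Psmb10 and Psme2) and 0 lower, against 13.3% and 11.5% of all genes. The groups did not overlap, with every array of the tumor group higher, for 5 genes (B2m, Tap1, Tap2, Psmb8 and Psmb10), where this held for 25.7% of all genes. For adjacent tissues it was 7 genes (Tap1, Tap2, Psmb8, Psmb9, Psmb10, Psme2 and Calr), against 24.8%. The median log2 fold change of the 10 genes was 0.49 in tumors and 0.69 in adjacent tissues, and that of all genes was 0.05 and 0.01. The 2 comparisons share their normal arrays, so their counts are not independent of each other.

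These counts depended on single arrays. Without tumor 1, 6 genes were called higher in tumors (B2m, Tap1, Tap2, Psmb8, Psmb10 and Psme2). It was 1 without tumor 2 (Psmb8), 0 without tumor 3, normal 1 or normal 2, and 1 without normal 3 (Tap1). In adjacent tissues it was 7 without adjacent 1, 3 without adjacent 2, 4 without adjacent 3, 1 without normal 1 or normal 2 (Tap1) and 2 without normal 3 (Tap1 and Tap2). The number of probe sets called on the whole array moved with them. It fell from 5574 to 1535 in tumors and from 5873 to 2728 in adjacent tissues when normal 1 was left out, and rose to 9216 in tumors without tumor 1.

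**Figure D2:**
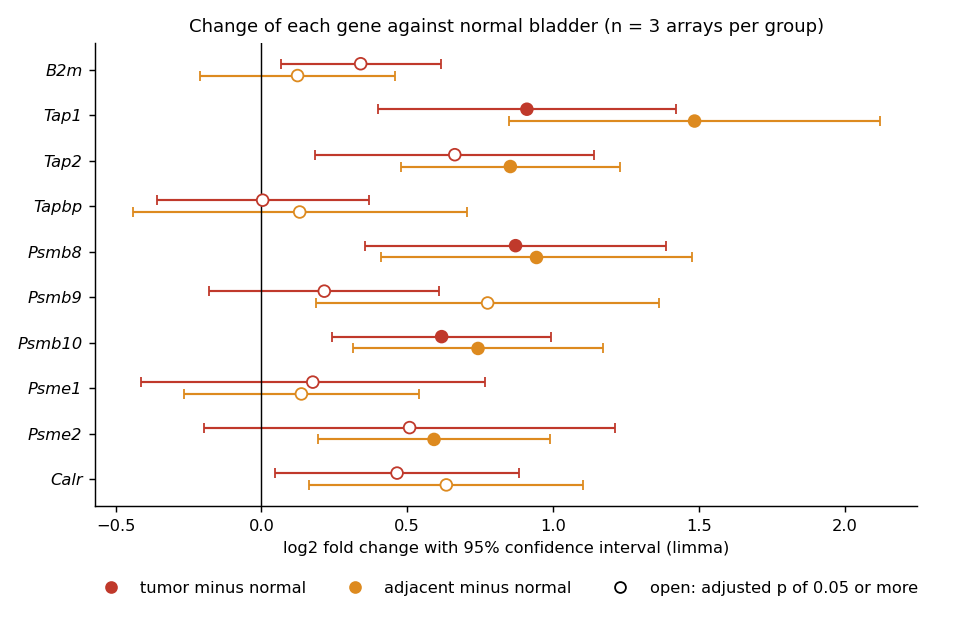
Log2 fold change of each gene against normal bladder tissues with its 95% confidence interval from limma (horizontal axis), for tumors (red) and adjacent tissues (orange), n = 3 arrays per group; filled points have an adjusted p under 0.05. Tap1, Psmb8 and Psmb10 are filled in both colors, Tap2 and Psme2 in orange, and Tapbp lies at 0.00 in tumors.

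Tap1 and Tap2 encode the subunits of the TAP transporter. For Tap1, log2 signals were 9.18, 8.82 and 8.92 in the tumors, 9.14, 10.01 and 9.49 in adjacent tissues and 8.03, 7.72 and 8.44 in normal tissues, given here and for every gene in the order of replicates 1, 2 and 3. All 6 arrays of tumor-bearing rats lay above all 3 normal arrays. Tap1 was 1.88-fold higher in tumors than in normal tissues (log2 fold change 0.91, SE 0.22, adjusted p = 0.030) and 2.80-fold higher in adjacent tissues (1.49, SE 0.27, adjusted p = 0.0092). The order of means was adjacent, tumor, normal. Tumors and adjacent tissues overlapped at a single pair of arrays, tumor 1 and adjacent 1, and did not pass the test (difference -0.57, 95% confidence interval -1.17 to 0.02). The tumor call ended without tumor 2, tumor 3, normal 1 or normal 2 (adjusted p 0.053, 0.080, 0.11 and 0.10), and the adjacent call held without each array in turn. The second Tap1 probe set was dim, under a signal of 50 on 8 of 9 arrays and listed at 0 in normal 1. Its log2 signals were 4.98, 5.63 and 5.14 in tumors, 5.42, 5.90 and 5.01 in adjacent tissues and 0, 4.91 and 1.25 in normal tissues, and neither comparison with normal tissues passed the test (adjusted p = 0.12 and 0.090).

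Tap2 log2 signal was 8.55, 9.14 and 9.09 in tumors, 9.16, 9.14 and 9.04 in adjacent tissues and 8.21, 8.13 and 8.44 in normal tissues. The adjacent arrays lay close together, and tumor 1 lay between the other tumors and the normal arrays. Tap2 was 1.81-fold higher in adjacent than in normal tissues (log2 fold change 0.85, SE 0.16, adjusted p = 0.010), and this call ended without normal 1 or normal 2 (adjusted p 0.057 and 0.058). In tumors the log2 fold change was 0.66 (SE 0.20, adjusted p = 0.065), which did not pass. Without tumor 1 it was 0.85 (adjusted p = 0.0056).

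Psmb8, Psmb9 and Psmb10 encode the catalytic subunits of the immunoproteasome. Psmb8 log2 signal was 10.56, 11.42 and 10.89 in tumors, 10.76, 11.57 and 10.76 in adjacent tissues and 9.93, 10.13 and 10.19 in normal tissues. Tumors and adjacent tissues overlapped, and all of their arrays were above all normal arrays. Psmb8 was 1.83-fold higher in tumors (log2 fold change 0.87, SE 0.22, adjusted p = 0.036) and 1.92-fold higher in adjacent tissues (0.94, SE 0.23, adjusted p = 0.026). The tumor call ended without tumor 3 or any normal array, and the adjacent call without any normal array.

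Psmb10 log2 signal was 9.88, 10.40 and 10.16 in tumors, 10.25, 10.61 and 9.96 in adjacent tissues and 9.48, 9.46 and 9.65 in normal tissues. The means stood in the same order as for Psmb8, with adjacent tissues above tumors and tumors above normal tissues, and tumors and adjacent tissues overlapped. Psmb10 was 1.53-fold higher in tumors (log2 fold change 0.62, SE 0.16, adjusted p = 0.039) and 1.67-fold higher in adjacent tissues (0.74, SE 0.18, adjusted p = 0.028). The tumor call ended without tumor 2, tumor 3 or any normal array, and the adjacent call without adjacent 2 or any normal array.

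Psmb9 log2 signal was 10.04, 10.61 and 10.32 in tumors, 10.42, 11.47 and 10.76 in adjacent tissues and 9.97, 10.14 and 10.21 in normal tissues. Tumor 1 lay inside the normal range, whereas the adjacent arrays lay above it. The log2 fold change was 0.22 in tumors (SE 0.17, adjusted p = 0.42) and 0.78 in adjacent tissues (SE 0.25, adjusted p = 0.072), and neither passed. Tumors minus adjacent tissues was -0.56 (95% confidence interval -1.24 to 0.12). Psmb9 and Tap1, which share the region between their starts, had the most negative differences between tumors and adjacent tissues among the 10 genes. Neither difference passed the test, and whether the shared region has a part in them was not tested.

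Each inducible subunit takes the place of a constitutive one, Psmb8 of Psmb5, Psmb9 of Psmb6 and Psmb10 of Psmb7. The Psmb6 probe set carries several gene symbols and is not used here. Psmb5 rose by 0.39 in adjacent tissues (adjusted p = 0.040) and had a log2 fold change of 0.40 in tumors (adjusted p = 0.11). Psmb7 rose by 0.60 in tumors (adjusted p = 0.039) and had 0.53 in adjacent tissues (adjusted p = 0.080). Without tumor 1 both were called in tumors and without adjacent 1 both in adjacent tissues, and leaving out any other array gave 0 calls. To set the changes side by side, each gene's log2 signal was taken relative to its mean in normal tissues, and the constitutive value was subtracted from the inducible one. For Psmb8 and Psmb5 this difference was 0.37, 0.72 and 0.31 in tumors, 0.29, 1.10 and 0.27 in adjacent tissues and -0.07, 0.03 and 0.04 in normal tissues. All arrays of tumor-bearing rats lay above the normal arrays. For Psmb10 and Psmb7 it was -0.08, 0.12 and 0.02 in tumors, 0.41, 0.60 and -0.38 in adjacent tissues and 0.11, 0.01 and -0.11 in normal tissues, and the groups overlapped. These differences were not tested.

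**Figure D3:**
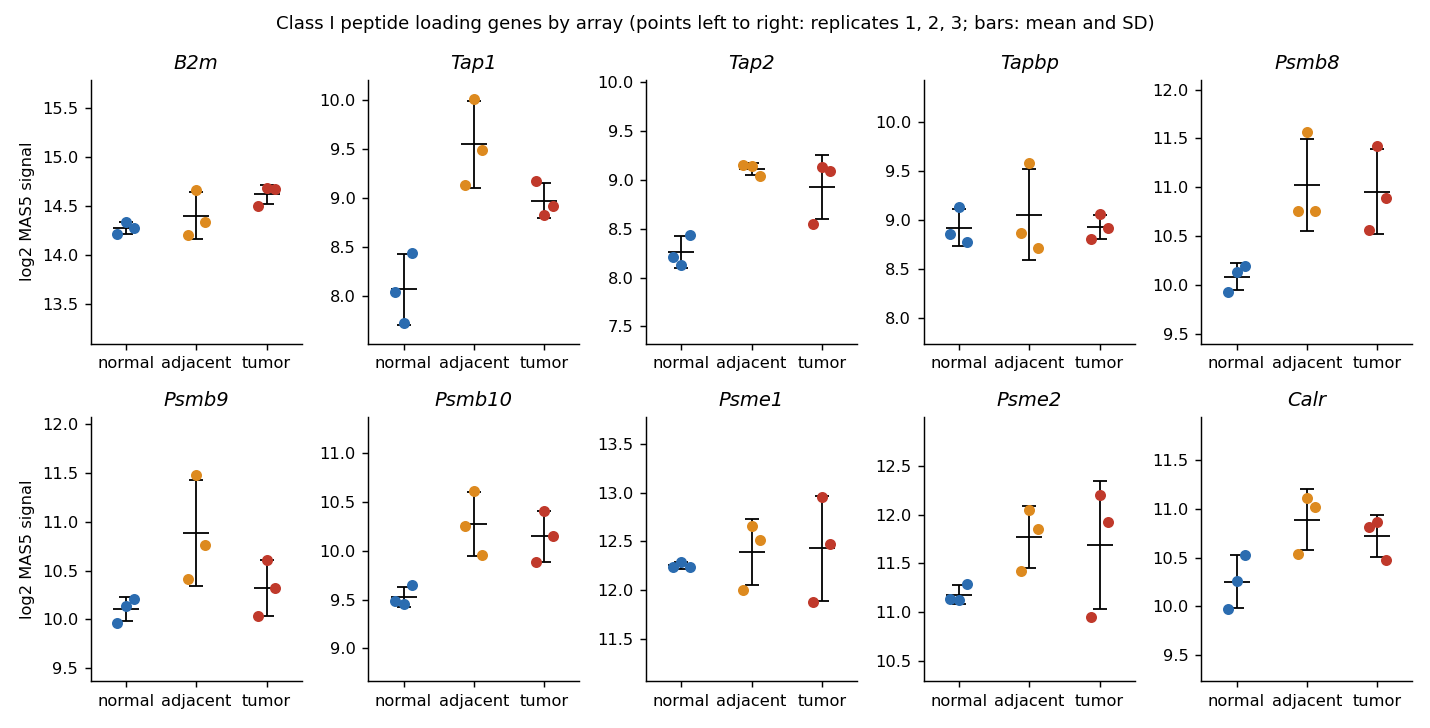
Log2 MAS5 signal (vertical axis, the same span in every panel) of the brightest probe set of each gene on the 9 arrays; points from left to right are replicates 1, 2 and 3, and black bars are the mean and SD, n = 3 arrays per group. Every tumor and adjacent array is above every normal array for Tap1, Tap2, Psmb8 and Psmb10, and the groups overlap for Tapbp and Psme1.

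Psme1 and Psme2 encode the subunits of the activator cap that interferon induces and that opens the proteasome. Psme2 log2 signal was 10.95, 12.20 and 11.92 in tumors, 11.42, 12.04 and 11.85 in adjacent tissues and 11.13, 11.12 and 11.29 in normal tissues. Tumor 1 was the lowest of the 9 arrays and tumor 2 the highest. Psme2 was 1.51-fold higher in adjacent tissues (log2 fold change 0.59, SE 0.17, adjusted p = 0.049). That call ended without adjacent 2, adjacent 3 or any normal array, under quantile normalization (adjusted p = 0.059), without a variance trend (0.14), with all 9 arrays in the fit (0.21), with the replicate block (0.061) and by the methods' t-test (0.15). In tumors the log2 fold change was 0.51 (SE 0.30, adjusted p = 0.29), and without tumor 1 it was 0.88 (adjusted p = 0.0014). Psme1 log2 signal was 11.88, 12.95 and 12.47 in tumors, 12.01, 12.66 and 12.51 in adjacent tissues and 12.24, 12.29 and 12.24 in normal tissues. Psme1 showed the same order of arrays within each of the groups of tumor-bearing rats as Psme2, on both sides of the normal arrays. Neither comparison passed (0.18, adjusted p = 0.67 in tumors and 0.14, adjusted p = 0.65 in adjacent tissues). The second Psme1 probe set ran from a log2 signal of 1.30 to 5.73 and was dim on every array but adjacent 3 and normal 1.

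B2m encodes the light chain of class I molecules. Its log2 signal was 14.50, 14.68 and 14.67 in tumors, 14.20, 14.66 and 14.34 in adjacent tissues and 14.22, 14.34 and 14.28 in normal tissues. All tumors were above all normal tissues, but the log2 fold change of 0.34 (SE 0.12) did not pass (adjusted p = 0.088). In adjacent tissues it was 0.12 (adjusted p = 0.61). The highest signal on an array lay between 14.63 and 15.10, so this probe set worked near the top of the range. The second B2m probe set, at 12.44 to 13.15, had log2 fold changes of 0.06 (adjusted p = 0.74) and -0.01 (adjusted p = 0.98). The probe sets of B2m therefore differed in tumors: the brighter did not overlap between tumors and normal tissues and the dimmer did.

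Tapbp encodes tapasin, which holds the class I molecule at TAP, and Calr encodes calreticulin, a chaperone of the loading complex. Tapbp log2 signal was 8.81, 9.06 and 8.91 in tumors, 8.86, 9.58 and 8.71 in adjacent tissues and 8.86, 9.13 and 8.78 in normal tissues. The groups overlapped throughout, with log2 fold changes of 0.00 (95% confidence interval -0.36 to 0.37) in tumors and 0.13 (-0.44 to 0.70) in adjacent tissues. Calr log2 signal was 10.81, 10.87 and 10.47 in tumors, 10.53, 11.11 and 11.02 in adjacent tissues and 9.98, 10.26 and 10.52 in normal tissues. Its log2 fold changes of 0.47 (adjusted p = 0.12) and 0.63 (adjusted p = 0.067) did not pass.

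Tumors and adjacent tissues were then compared with each other. Of the 10 genes, 0 were called, and 0% of all genes were called higher in this comparison. The limma fit called 0 of 31042 probe sets, and 845 had an unadjusted p under 0.05, among them 0 of the 10 genes. The methods' t-test after adjustment called 0 of the 10 genes as well, and so did the fit with the replicate number as a block. Log2 differences ran from -0.57 for Tap1 to 0.22 for B2m. The 95% confidence intervals of all 10 differences held 0, and they reached as low as -1.24 for Psmb9 and as high as 0.73 for Psme1, so that differences of this size are not excluded. The intervals and the unadjusted p-values are those of the fit without pairs, although the tissues come from the same rats.

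The genes varied together among the arrays. Adjacent 2 was the highest array for 6 of the 10 genes and tumor 2 for 3, whereas normal 1 and normal 2 were each the lowest for 3 and tumor 1 for 2. Pearson's r over the 9 arrays between each gene and the mean of the other 9 was 0.98 for Psmb8, 0.92 for Psmb10, 0.87 for Psmb9 and 0.86 for Psme2. It was lowest for Psme1 (0.64) and Tapbp (0.52). Among 10891 other genes with a mean signal over 50, those with the highest r with the mean standardized profile of the 10 were Parp12 (0.98), Slfn2 (0.96), Gfus (0.95), Fdxacb1 (0.95) and Ap1m2 (0.95). These r values are descriptions over arrays of 3 groups, which share the difference between groups and their scaling.

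**Figure D4:**
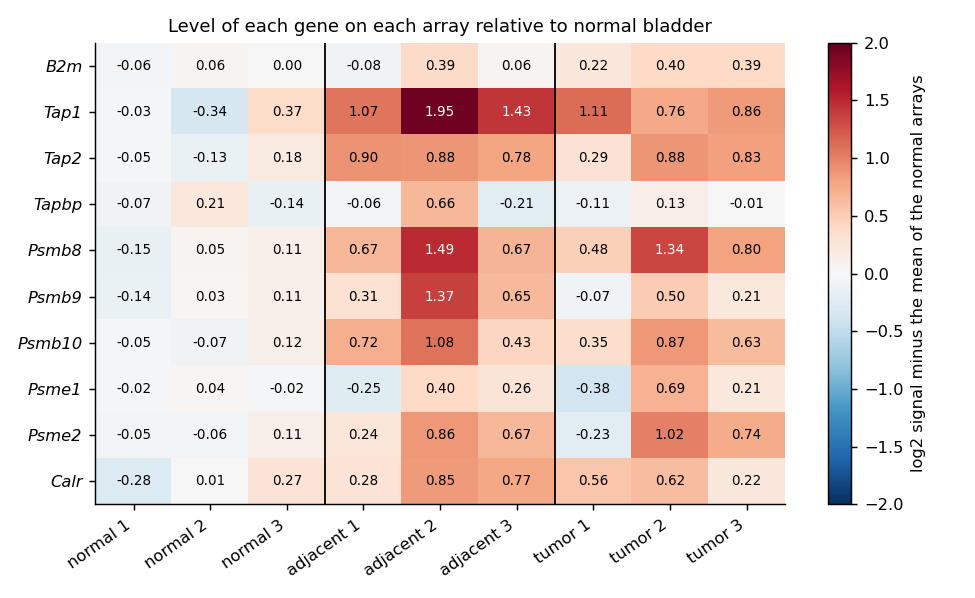
Log2 signal of each gene (rows) on each array (columns) minus the gene's mean over the 3 normal arrays, as color and number; vertical lines separate the groups. Adjacent 2 and tumor 2 are the darkest columns, Tap1 in adjacent 2 is the highest cell at 1.95, and tumor 1 is below the normal mean for Tapbp, Psmb9, Psme1 and Psme2.

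The heavy chain, which binds the peptide, is encoded by the RT1 genes in the rat. Of 12 class I RT1 genes measured, 4 were higher and 4 lower in tumors, and 4 were higher and 1 lower in adjacent tissues. Among all genes, 13.6% were called higher and 9.95% lower in tumors, and 13.3% and 11.5% in adjacent tissues. RT1-CE10 log2 signal was 11.52, 12.53 and 11.40 in tumors, 10.80, 12.69 and 11.25 in adjacent tissues and 7.22, 6.87 and 6.81 in normal tissues. The log2 fold changes were 4.85 (adjusted p = 0.00097) and 4.61 (adjusted p = 0.00090). RT1-CE16 rose by 3.70 and 3.63 and RT1-CE12 by 2.97 and 2.84 in tumors and adjacent tissues. RT1-CE5 rose by 1.10 in tumors and 2.54 in adjacent tissues, and its adjacent arrays (11.14, 12.50 and 12.80) were all above its tumors (10.41, 11.07 and 10.65), a difference of -1.44 that did not pass (adjusted p = 1.0). RT1-T24-4 went the other way, with falls of 2.38 and 2.43. RT1-N2, RT1-S3 and RT1-T24-3 were called lower in tumors, with log2 fold changes of -2.00, -1.43 and -0.98, RT1-N2 being dim in all 3 tumors. Some RT1 genes are close copies of each other, and RT1 genes differ between rat strains. The labels give no RT1 haplotype, and a probe set can read another copy or miss an allele, so the RT1 values are uncertain. The normal rats were other animals than the tumor-bearing rats. The part of the haplotype in these differences was not tested. Without normal 1, 2 or 3, the number of calls in tumors was 5, 4 and 3 in place of 8. Without tumor 1 it was 9, 5 higher and 4 lower, beside 20.4% and 17.5% of all genes.

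Chaperones and trimming enzymes of the endoplasmic reticulum were mostly not called. Of 11 measured, 1 was called in tumors, Sec61b, a subunit of the channel through which proteins enter the endoplasmic reticulum (0.60, adjusted p = 0.048), and 0 in adjacent tissues. Beside this, 13.6% of all genes were called higher in tumors and 13.3% in adjacent tissues. Canx, the chaperone calnexin, had log2 fold changes of 0.17 and 0.22, Pdia3 of 0.28 and 0.21 and the peptide trimming enzyme Erap1 of -0.37 and -0.28 in tumors and adjacent tissues. None of these passed. The tumor list had 1 call without tumor 1 and 0 without any other array, and the adjacent list had 1 without adjacent 1.

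Other genes of the proteasome were called higher and none lower. Of 14 shared core subunits and assembly factors, 8 were called higher in tumors and 5 in adjacent tissues, and 0 lower in either. Among all genes, 13.6% were called higher in tumors and 13.3% in adjacent tissues. Psma5 rose by 0.80 and 0.82, Psmb3 by 0.87 and 0.70 and Psma4 by 0.68 and 0.63. Pomp, the assembly factor of the core, rose by 0.61 in tumors. Of 18 subunits of the regulatory particle that recognizes ubiquitinated proteins, 10 were called higher in tumors and 8 in adjacent tissues, and 0 lower. Psmd3 rose by 0.97 and 0.90, Psmd14 by 0.87 and 0.79 and Psmd11 by 0.72 and 0.68, and Psmd8 rose by 0.76 in tumors. Psme4, another activator cap, rose by 1.50 in tumors and 1.30 in adjacent tissues (adjusted p = 0.0030 and 0.0019). The cytosolic peptidase Blmh, which shortens peptides, rose by 0.76 and 0.89. It was the only 1 of 6 peptidases called, near the share of all genes called higher. The peptidases had 3 calls in tumors without tumor 1 (2 higher and 1 lower), 0 without any normal array, and 0 in adjacent tissues without normal 1. The medians of the core and regulatory lists were 0.45 and 0.45 in tumors and 0.37 and 0.40 in adjacent tissues, beside 0.49 and 0.69 for the 10 loading genes. Without normal 1, 2 or 3, calls in tumors were 1, 1 and 2 for the core list and 4, 3 and 5 for the regulatory list, and in adjacent tissues 1, 1 and 3 and 1, 1 and 1. Without tumor 1, 10 of each list were called higher in tumors. Without tumor 2 or tumor 3, 3 of the core list were called in tumors, and without tumor 3, 5 of the regulatory list. In adjacent tissues the core list had 9 calls without adjacent 1 and 3 without adjacent 2 or adjacent 3, and the regulatory list 5 without adjacent 3.

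Among 21 measured regulators of class I transcription, 3 were higher in tumors and 6 in adjacent tissues, and 0 lower. The tumor count is near the 13.6% called higher among all genes, and the adjacent count stands beside 13.3%. Nlrc5, the transactivator of class I genes, had a log2 signal of 7.80, 8.05 and 7.94 in tumors, 7.91, 8.23 and 8.03 in adjacent tissues and 7.00, 6.99 and 6.67 in normal tissues. All arrays of tumor-bearing rats were above the normal arrays, with log2 fold changes of 1.04 (SE 0.20, adjusted p = 0.016) and 1.17 (SE 0.22, adjusted p = 0.010). Irf8, a factor of myeloid cells, rose by 1.56 and 2.01, and Ifngr1, a chain of the interferon gamma receptor, by 0.86 and 1.06. In adjacent tissues Nfkb1 rose by 1.24, Irf1 by 0.77 and Ifngr2 by 0.43. Irf1, which binds ISRE-type sequences, had log2 signals of 9.77, 10.99 and 10.56 in tumors and a log2 fold change of 0.82 that did not pass (adjusted p = 0.098). Ifng itself was dim on every array, from 0 to 3.59. Leaving out each array in turn gave 1 to 6 calls in tumors, 6 without tumor 1 and 1 without any normal array, and 3 to 6 in adjacent tissues, 3 without any normal array.

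Other interferon targets were called in both directions in tumors, near the shares of all genes. Of 24 measured, 3 rose and 3 fell in tumors, against 13.6% and 9.95% of all genes. In adjacent tissues 8 rose and 0 fell, against 13.3% and 11.5%. Ifit3 rose by 2.54 in tumors and 3.63 in adjacent tissues. Ubd, a ubiquitin-like protein, rose by 2.69 in tumors, and Mx2, Ifit1 and Bst2 fell there by 1.47, 1.13 and 1.06. In adjacent tissues Rsad2 rose by 3.39, Isg15 by 2.07, and the chemokines Cxcl11 and Cxcl10 by 3.02 and 2.47. The summed level of the 24 genes was 102%, 93.5% and 70.8% of the normal mean in tumors 1, 2 and 3 and 90.1%, 243% and 101% in adjacent tissues 1, 2 and 3. The brightest genes weigh most in this sum. Adjacent 2, the highest array for most of the loading genes, was also the highest for it. Tumor 2 lay below the normal mean in the sum but above all normal arrays for Ifit3 (log2 signal 9.14), Rsad2 (10.40) and Ubd (11.37). For others, among them Mx2 (6.74), Ifit1 (6.30) and Bst2 (10.65), tumor 2 lay below all normal arrays. These genes are examples from the 24. Without normal 1, 2 or 3 there was 1 call in tumors and there were 5 in adjacent tissues. The count in tumors was 3 without tumor 2. Without tumor 1 it was 10, 4 higher and 6 lower, beside 20.4% and 17.5% of all genes.

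**Figure D5:**
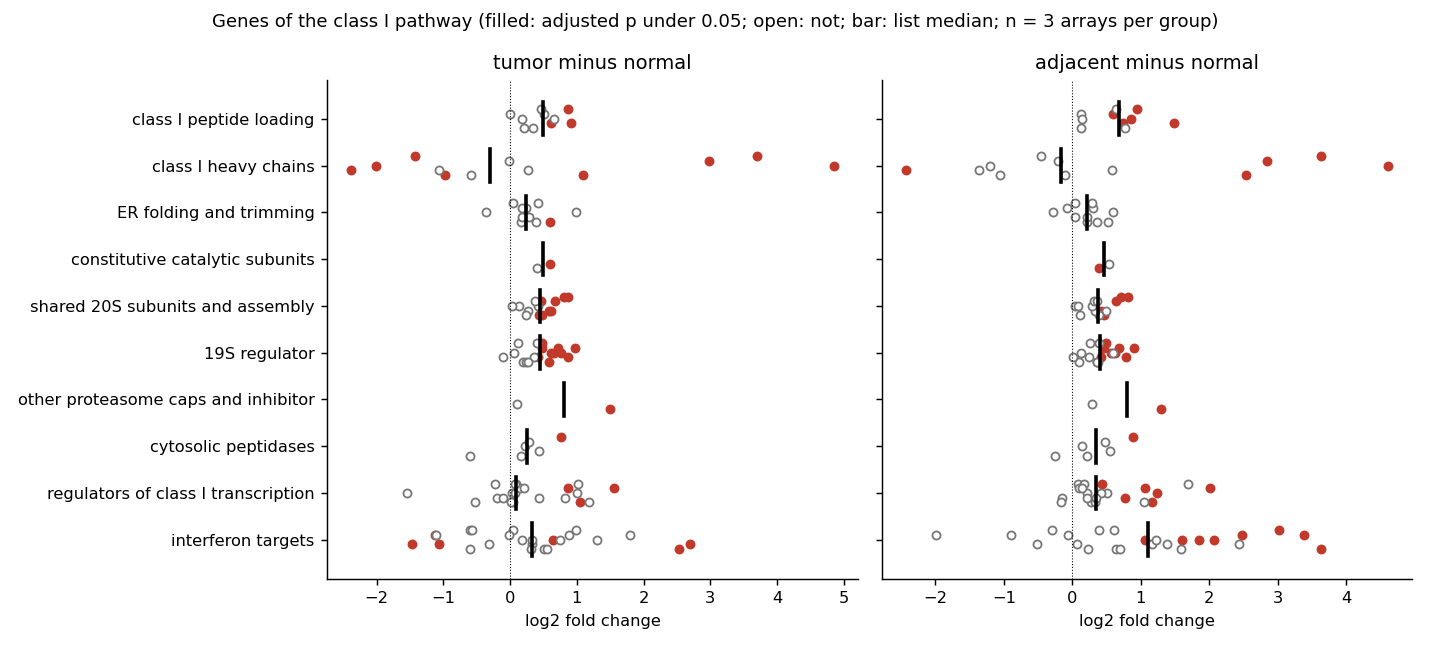
Log2 fold change (horizontal axis) of each gene of the class I pathway lists in tumors (left) and adjacent tissues (right) against normal bladder tissues, n = 3 arrays per group; filled points have an adjusted p under 0.05 and black bars are list medians. The medians of the core and regulatory proteasome lists lie between 0.37 and 0.45, whereas heavy chains spread from -2.38 to 4.85 in tumors.

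Marker genes of other cell types were counted in the same fits. There, 13.6% of all genes were called higher and 9.95% lower in tumors, and 13.3% and 11.5% in adjacent tissues. Summed levels of the 10 loading genes were 110%, 148% and 133% of the normal mean in tumors 1, 2 and 3 and 102%, 151% and 119% in adjacent tissues 1, 2 and 3, with the brightest probe sets weighing most. Of 8 genes expressed by all leukocytes, 2 were called higher and 1 lower in tumors, with a sum of 77.1% to 130% of normal. In adjacent tissues 5 were higher and 1 lower, with a sum of 126% to 183%. Tumor 2 had the highest sum of loading genes among the tumors and the lowest sum of leukocyte genes, 77.1%. Cd48, the brightest leukocyte gene, weighs most in the leukocyte sum (log2 signal 10.01 in tumor 2, mean 11.71 in normal tissues). Ptprc, Coro1a, Cd53 and Arhgdib were above their normal means in tumor 2 (9.05, 9.02, 9.43 and 9.92 against 8.77, 7.88, 8.85 and 9.29). Laptm5, Cd52, Lcp1 and Cd48 were below theirs. Of 15 genes of T and NK cells 2 rose in tumors (84.2% to 145%), near the share of all genes called higher, and 3 in adjacent tissues (166% to 186%). Of 12 macrophage genes 2 rose in tumors (116% to 157%) and 3 in adjacent tissues (121% to 184%). Of 4 dendritic cell genes 2 rose in each, with sums of 219% to 334% and 343% to 517%. Of 5 neutrophil genes 3 rose in each, with sums of 2044% or more of normal. S100a8 and S100a9 weigh most in these sums. In normal tissues the neutrophil genes were dim, save S100a9 in normal 2 (log2 signal 7.06), so these percentages are not firm. Smooth muscle genes fell: 5 of 11 in tumors, with sums of 2.61% to 69.6%, and 11 of 11 in adjacent tissues, with 4.52% to 34.2%. Of 13 urothelial genes 4 rose and 2 fell in each, with sums of 117% to 136% in tumors and 89.1% to 128% in adjacent tissues. Of 7 fibroblast genes 0 were called in tumors and 4 fell in adjacent tissues, with sums of 8.18% to 77.3% and 22.8% to 64.2%. Without tumor 1, calls in tumors were 0 higher and 11 lower for smooth muscle, 0 and 7 for fibroblasts and 5 and 4 for urothelium. They were 3 and 1 for all leukocytes, 2 and 1 for T and NK cells, 2 and 4 for macrophages, 1 and 1 for dendritic cells and 4 and 0 for neutrophils. No gene of these lists was listed at 0 on any array. The part of leukocytes, muscle and epithelium in the changes of the loading genes was not tested.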

How the data were processed

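RNA of 9 rat bladder samples was labelled by 3' in vitro transcription and hybridised to Affymetrix arrays. The authors normalized the arrays with the MAS5 algorithm, and the deposited values are log2 signals whose trimmed mean linear signal is between 500.1 and 500.2 on every array. No scaling was added. The 57 array controls were left out, and 31042 probe sets were tested, of which 20826 carry 1 gene symbol in the array annotation, 436 several and 9780 none.

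The 2 groups of a comparison were fitted without the third in limma 3.58.1 (R 4.3.3; lmFit, then eBayes with trend), with Benjamini-Hochberg adjustment over all probe sets and a threshold of 0.05. A gene was represented by its probe set of highest mean signal. Signals under 50 were treated as dim. With 3 arrays per group, the number of arrays limits the precision. Each p-value sets a difference of group means against the variance between these arrays, which limma draws toward a trend over all probe sets.

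The series design pairs tumors with adjacent tissues by rat. The deviations of same-numbered arrays from their group means had r = 0.52, 0.13 and 0.38 for numbers 1, 2 and 3. Differing numbers had r from -0.46 to 0.27, the highest for tumor 2 with adjacent 3, above the value of number 2. The numbers were taken as pairs, which is uncertain for number 2. The main fit did not use the pairs, and the replicate number as a block changed no call there. The fit was tested on simulated data.

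The genes and the lists set beside them were chosen with earlier results of these data known. Named are all 10 loading genes and, from each other list of the class I pathway, the gene with the smallest p and up to 4 called genes by size of change. Psma1, Psma2, Psmc3 and Psmd2 also met this rule and are not described. Added are Psmb5, Psmb7, Canx, Pdia3, Irf1 and Nlrc5, and 5 genes outside the lists by correlation. Erap1, Ifng, Ifngr2, RT1-S3 and RT1-T24-3, named beyond the rule, were chosen after their values were seen. So were S100a8, S100a9 and the leukocyte genes named among the markers. Alternatives were quantile normalization, centring on array medians, removal of probe sets below the 40th percentile of mean level, 50 added before log2, no variance trend, all 9 arrays in 1 fit, the replicate number as a block, the methods' t-test after adjustment, averaging the probe sets of a gene, and leaving out each array.

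RefSeq promoter windows of assembly GRCr8 were searched for motif patterns written from general knowledge. Another motif was searched and is not reported here. The array files hold no coordinates. Probe-level intensity files were not used here.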

Additional observations from a re-analysis of the deposited data

How the results depend on the processing

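Among the 10 loading genes, 3 were called in tumors against normal tissues, and 0 to 6 when each array was left out in turn. The count was 5 with the filter at the 40th percentile, 0 without a variance trend, 0 by the methods' t-test after adjustment and 1 with the replicate block (Psmb8). In adjacent against normal tissues 5 were called, and 1 to 7 when each array was left out. It was 2 without a variance trend, 1 by the methods' t-test and 4 with the replicate block. The remaining settings gave 2 to 3 calls in tumors and 4 to 7 in adjacent tissues. Same-numbered tumor and normal arrays do not come from the same rat and their deviations did not correlate (r = -0.02, 0.05 and -0.06), so that block removes degrees of freedom without a pair behind it. Between tumors and adjacent tissues 0 loading genes were called under every setting, the replicate block included. At an unadjusted p under 0.05, limma gave 6, 7 and 0 of the 10 genes in tumors, adjacent tissues and between them, and the methods' t-test 5, 5 and 0. Beside this, limma gave 10167, 9954 and 845 of all 31042 probe sets at that threshold in the same comparisons.

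Signs turned for small changes when single arrays were left out. In tumors, Tapbp ranged from -0.068 (without normal 3) to 0.11, and was also below 0 without tumor 2 (-0.061) or normal 1 (-0.028), and Psme1 ranged from -0.083 (without tumor 2) to 0.45. In adjacent tissues, B2m ranged from -0.0072 to 0.22 and Tapbp from -0.13 to 0.30, both lowest without adjacent 2, and Psme1 came to -0.71 with the mean of its probe sets. Between tumors and adjacent tissues, Psmb8 ranged from -0.30 to 0.20, Psmb10 from -0.28 to 0.044 and Tapbp from -0.30 to 0.14, all highest without adjacent 2, Psme2 from -0.34 to 0.29 (without tumor 1) and Psme1 from -0.22 (without tumor 2) to 0.32. The cause was not tested. Centring the arrays on their medians moved the median of all genes to 0.25 in tumors and 0.21 in adjacent tissues, and quantile normalization to 0.13 and 0.08, so changes of that size depend on the scaling. Probe sets under a signal of 50, such as the second of Tap1, give no firm fold change.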
